A study of Saccharomyces cerevisiae with 27 samples.

Results

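The vacuolar proton ATPase (V-ATPase) of Saccharomyces cerevisiae is described here through the transcripts of 10 of its subunits: VMA1, VMA2, VMA3, VMA4, VMA5, VMA6, VMA7, VMA8, VMA13 and VPH1. They were chosen by name, with earlier results of these data known, and are 10 of the 6692 genes listed for every library. All 10 passed the filter on low values in each comparison, and each had between 453 and 65289 reads in a library. Cells were BY4741, a single MATa laboratory strain that carries his3, leu2, met15 and ura3 deletions. The cultures were grown in synthetic complete medium with 2% glucose, the nonrestricted (NR) condition, and at inoculation received 2% (vol/vol) of concentrated conditioned medium from calorie-restricted cultures (CRCM), the same volume of concentrated medium from nonrestricted cultures (NRCM), or water. Cells were collected in log phase, at 24 h (late diauxic shift) and at 96 h (stationary phase), with 3 biological replicates in each of the 9 groups, so 27 RNA-seq libraries in all. The study prepared conditioned media from BY4741 or the prototrophic strain FY4, and its RNA methods do not name the strain that gave these media. Whether replicates shared a batch of medium is not given in the sources used here.

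The V-ATPase is a rotary pump that hydrolyses ATP in a peripheral V1 sector and moves protons through a membrane V0 sector, which acidifies the vacuole. The proton gradient drives the storage of amino acids and metal ions in the vacuole. When glucose runs out, V1 comes off V0, and the RAVE complex puts the sectors together again once glucose returns. That switch is set at the protein level and is not seen in transcript levels.

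The libraries held 7396427 to 114316139 reads over the listed genes, with a median of 12375094, and the deepest was CRCM 24 h replicate 3. Levels are given as CPM, a read count normalised to library size, with TMM factors over the 27 libraries, and differences as log2 fold changes of CPM + 1 with their standard errors. A gene was called where limma's adjusted p over all genes tested was under 0.05. In the strain check, MET17 (met15) had 0 reads in every library, and the a-specific MFA1 had at least 101 CPM in every library. The a-specific BAR1 had 43.6 to 396 CPM. Of the alpha-specific genes, STE3 had 3.24 to 8.25 CPM in log phase and 24.2 to 60.4 CPM at 24 h and 96 h. MF(ALPHA)1 had 1.49 to 13.2 CPM and MF(ALPHA)2 had 2.95 to 25.9 CPM. HIS3, of which the his3 allele of BY4741 removes only a part, had 28.3 to 58.4 CPM in all libraries. CRCM 96 h replicate 3 had 541 LEU2 reads (68.1 CPM) and 93 URA3 reads (11.7 CPM), while none of the other 26 libraries was above 0.174 CPM for LEU2 or 0.177 CPM for URA3. That library therefore goes against the strain's genotype, and each member call that rests on it is given with and without it. The transporter counts for 96 h against 24 h with CRCM are given only with it. In log phase, the libraries numbered 3 also stood apart for VMA5, VMA6 and VMA7, while for the other members they overlapped the other 6 libraries. VMA6 lay at 311 to 361 CPM in those 3 libraries, against 519 to 691 CPM in the other 6. VMA5 and VMA7 were likewise below all of the other 6 libraries, with the same order in CRCM, NRCM and water.

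The upstream sequences of 5 members are shown because VMA1 moved apart from the other subunits, and because it shares a stress response element with VMA4, VMA7 and VMA13. VMA2, which encodes the partner of the VMA1 product, has none. Each run holds bases 250 to 101 before the start codon (build R64, the assembly also called sacCer3), 5′ to 3′ on the strand of the gene, with AGGGG or its reverse complement CCCCT in capitals.
VMA1: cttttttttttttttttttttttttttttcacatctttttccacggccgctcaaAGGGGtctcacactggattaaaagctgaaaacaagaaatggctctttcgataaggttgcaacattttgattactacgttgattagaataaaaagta
VMA4: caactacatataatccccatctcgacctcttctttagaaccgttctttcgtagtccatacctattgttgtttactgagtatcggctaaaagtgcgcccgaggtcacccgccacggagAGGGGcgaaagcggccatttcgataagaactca
VMA7: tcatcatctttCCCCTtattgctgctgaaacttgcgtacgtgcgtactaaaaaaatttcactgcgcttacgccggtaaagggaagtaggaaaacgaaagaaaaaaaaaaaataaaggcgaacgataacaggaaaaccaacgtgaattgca
VMA13: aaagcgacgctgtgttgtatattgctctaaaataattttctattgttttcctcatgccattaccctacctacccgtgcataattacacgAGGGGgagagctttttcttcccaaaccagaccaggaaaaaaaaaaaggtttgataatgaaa
VMA2: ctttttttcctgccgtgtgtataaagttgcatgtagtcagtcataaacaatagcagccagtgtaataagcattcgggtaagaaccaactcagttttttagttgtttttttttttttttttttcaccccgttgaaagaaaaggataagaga
They lie at chrIV:126537-126686 (plus strand), chrXV:943406-943555 (plus strand), chrVII:527430-527579 (minus strand), chrXVI:643586-643735 (plus strand) and chrII:492923-493072 (minus strand).

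The element AGGGG, searched on both strands from 250 bases before to 50 bases after the start codon, was found for 5 of 10 members, and for 21.6% of the 6020 windows of the same length. It stood 196 bases before the start codon of VMA1, 133 before VMA4, 239 before VMA7 and 161 before VMA13, while in VMA3 it lay inside the coding sequence. GATAA was found for 9 of 10 members and 61.5% of windows, TATAAA for 3 members and 45.4% of windows, and CCAAT for 1 member and 43.3% of windows. TGACTC and CACGTG were in no member's window and in 7.96% and 2.91% of windows. These are matches of letters, and the members that carry AGGGG include both the transcript that differed most between supplements at 24 h (VMA1) and others that were not called against water there (VMA4, VMA7 and VMA13).

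VMA1 (YDL185W, R64 chrIV:126787-130002, plus strand) encodes subunit A, the catalytic subunit, and its product also contains a self-splicing intein. VMA2 (YBR127C) encodes subunit B, which alternates with A in the V1 ring. VMA8 (YEL051W, subunit D) and VMA7 (YGR020C, subunit F) form the central stalk, VMA4 (YOR332W, subunit E) is in the peripheral stalks, and VMA5 (YKL080W, subunit C) and VMA13 (YPR036W, subunit H) link V1 to V0. Subunit C leaves when the sectors part, and subunit H keeps free V1 inactive. In V0, VMA3 (YEL027W) encodes the main c subunit of the proteolipid ring, VMA6 (YLR447C) subunit d, and VPH1 (YOR270C) the a subunit isoform of the vacuole. Each gene has 1 coding segment, and no other gene annotated by RefSeq overlaps it.

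Per kb of coding sequence, VMA3 had the highest level of the 10 in all 9 groups. In log phase it averaged 1950 ± 133 CPM per kb with CRCM, 2220 ± 714 with NRCM and 1600 ± 198 with water (SD, n = 3 each). VPH1 was the lowest there, at 249, 283 and 249 CPM per kb in CRCM, NRCM and water. VMA1 took place 9 of 10 in log phase in each supplement. At 24 h its place differed by supplement, place 6 in CRCM with 167 CPM per kb, place 4 in NRCM with 300 CPM per kb and place 2 in water with 454 CPM per kb. The spread between replicates was widest in log phase, where the coefficient of variation of a member had a median of 14.2%, against 6.99% at 24 h and 6.86% at 96 h.

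**Figure D1:**
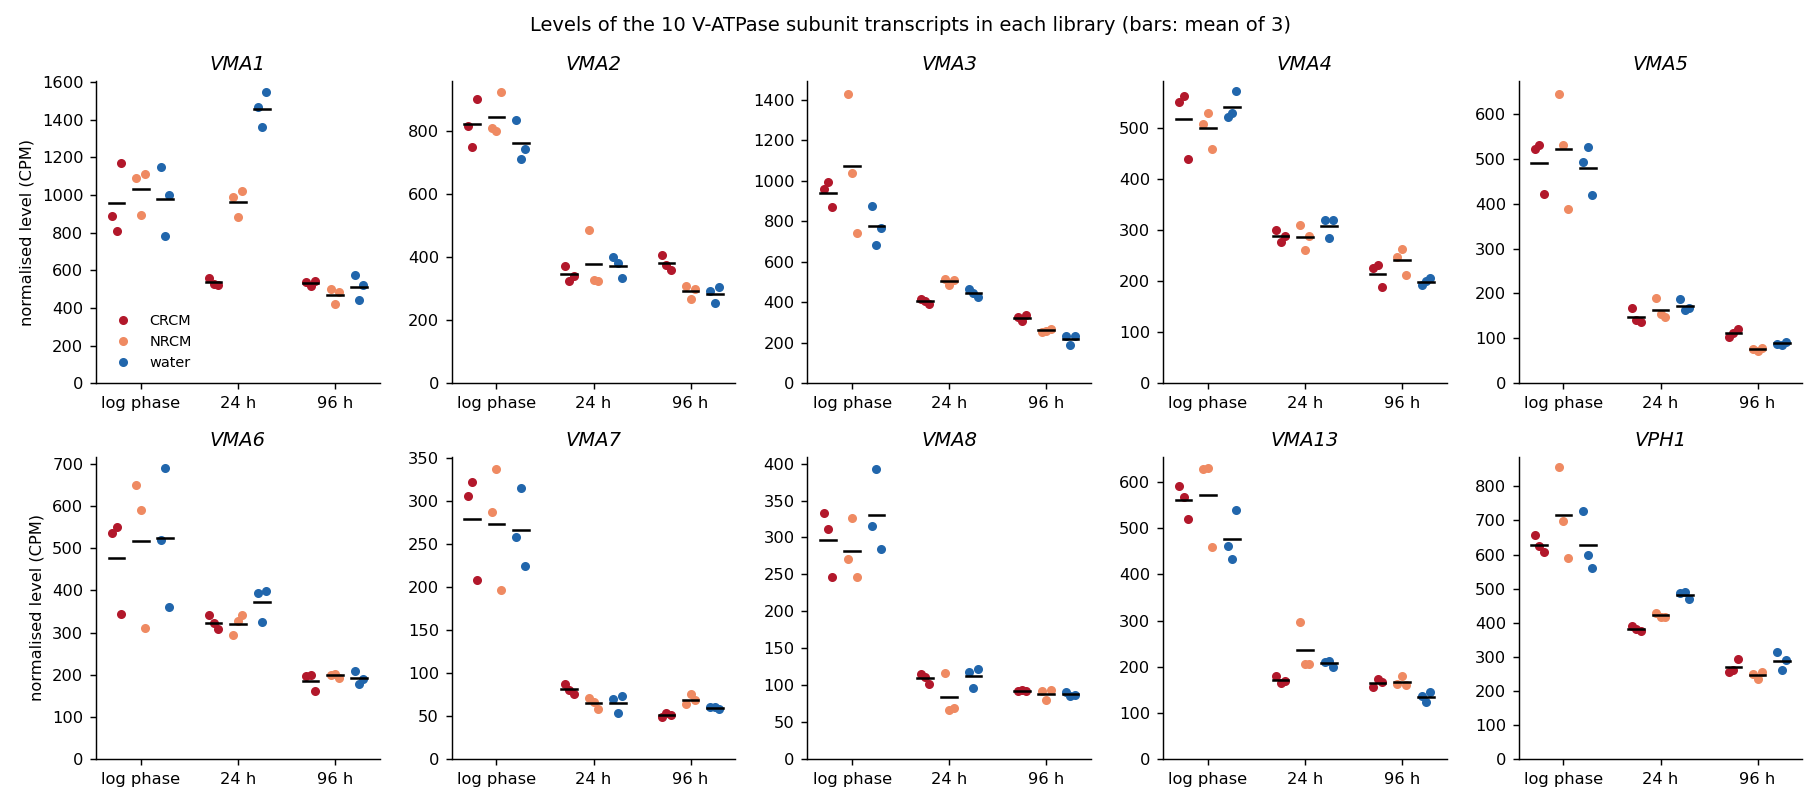
Normalised level (CPM, linear axis from 0) of each of the 10 subunit transcripts in the 27 libraries, by time and supplement (red CRCM, orange NRCM, blue water; points are libraries and bars are means of 3). Most panels step down after log phase in all supplements, while VMA1 at 24 h stands at 523 to 560 CPM in CRCM, 882 to 1020 in NRCM and 1360 to 1550 in water.

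In log phase, the supplements were compared to ask whether conditioned medium changed these transcripts in growing cells. None of the 10 members was called in CRCM against water, NRCM against water or CRCM against NRCM. limma called 0%, 0.0154% and 0% of the 6483 genes tested in these comparisons, in either direction. At an unadjusted p under 0.05 the members called were again 0 in each, and edgeR and DESeq2 also called 0. Libraries of all members overlapped in all 3 comparisons, where 8.01%, 9.53% and 6.25% of genes did not overlap. The largest member differences from water were those of VMA3, 0.28 ± 0.21 on the log2 scale in CRCM against water and 0.42 ± 0.21 in NRCM against water (SE, n = 3 each). VMA3 lay at 958, 995 and 870 CPM with CRCM, and at 1430, 1040 and 744 CPM with NRCM. With water it lay at 873, 682 and 767 CPM, so all groups overlap. Leaving out the libraries numbered 3 together, an alternative chosen after seeing the data, also gave 0 calls in these comparisons.

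Between log phase and 24 h, as cells pass the diauxic shift, most subunit transcripts fell in every supplement, while VMA1 was called lower only with CRCM. With CRCM all 10 members fell at 24 h relative to log phase, where 36.5% of the 6658 genes tested were called lower and 39.7% higher. With NRCM 9 fell (39.5% of genes lower, 38.8% higher), and with water 8 fell and 1 rose (39.2% lower, 37.1% higher). The median log2 fold change of the members was -1.23 with CRCM, -1.11 with NRCM and -0.92 with water. The members' groups did not overlap for 10 genes with CRCM, 8 with NRCM and 9 with water, where 83.2%, 75.8% and 75.2% of all genes did not overlap in either direction.

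The central stalk subunit VMA7 had the deepest fall in each supplement. It lay at 87.4, 80.7 and 75.8 CPM at 24 h with CRCM, against 306, 322 and 208 CPM in log phase. With water it lay at 69.1, 53 and 72.6 CPM at 24 h, against 258, 315 and 224 CPM in log phase. The fold change was -1.74 ± 0.17 (adjusted p = 1.83e-09) with CRCM, -2.03 ± 0.17 (1.06e-10) with NRCM and -2.01 ± 0.17 (1.24e-10) with water. The CRCM and water falls differed by 0.27 ± 0.25, which limma did not call (adjusted p = 0.451). VMA8 fell too, with log2 fold changes of -1.43, -1.77 and -1.54 with CRCM, NRCM and water (adjusted p at most 3.45e-08). Among the subunits that link V1 to V0, VMA5 fell (-1.72, -1.64 and -1.47 with CRCM, NRCM and water), as did VMA13 (-1.70, -1.28 and -1.20), with an adjusted p of at most 2.44e-08. The ring subunit VMA2 was at -1.25, -1.18 and -1.03 and VMA4 at -0.83, -0.80 and -0.82 in the same order, all called.

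In the membrane sector, VMA3 fell (-1.21, -1.03 and -0.79 with CRCM, NRCM and water) and so did VPH1 (-0.72, -0.74 and -0.37). The VPH1 call with water was lost without water log phase replicate 1 (-0.27, adjusted p = 0.0663). VMA6 fell with CRCM (-0.53 ± 0.22, adjusted p = 0.0373) and NRCM (-0.62 ± 0.22, 0.0152), and with water it was at -0.45 ± 0.22 (0.0747). The VMA6 calls hang on single libraries. With CRCM the call was lost without CRCM log phase replicate 1 or 2 (adjusted p = 0.135 and 0.151) and without CRCM 24 h replicate 1, 2 or 3 (0.0509, 0.0715 and 0.0654). With NRCM it was lost without NRCM log phase replicate 1 or 2 (0.114 and 0.0815). Without the log-phase libraries numbered 3, VMA6 was also called with water (-0.69, adjusted p = 9.64e-05), and 10, 9 and 9 members fell with CRCM, NRCM and water. No called member changed sign without scaling factors, though VMA6 with CRCM was then at -0.17 (adjusted p = 0.498). VMA6 was also called with water without water log phase replicate 3 (-0.69, 0.0095) or NRCM log phase replicate 3 (-0.45, 0.0296).

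VMA1 was the exception. With water it rose, at 1470, 1360 and 1550 CPM at 24 h, against 1150, 783 and 1000 CPM in log phase (0.59 ± 0.16, adjusted p = 0.00137). In bulk cultures, fewer cells with a transcript and less of it per cell cannot be told apart. With NRCM it lay at 990, 882 and 1020 CPM at 24 h, against 1090, 896 and 1110 CPM in log phase (-0.10 ± 0.16, 0.577). With CRCM it fell, at 560, 526 and 523 CPM at 24 h, against 889, 811 and 1170 CPM in log phase (-0.82 ± 0.16, 4.35e-05). The time points do not overlap with water or CRCM and do with NRCM.

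**Figure D2:**
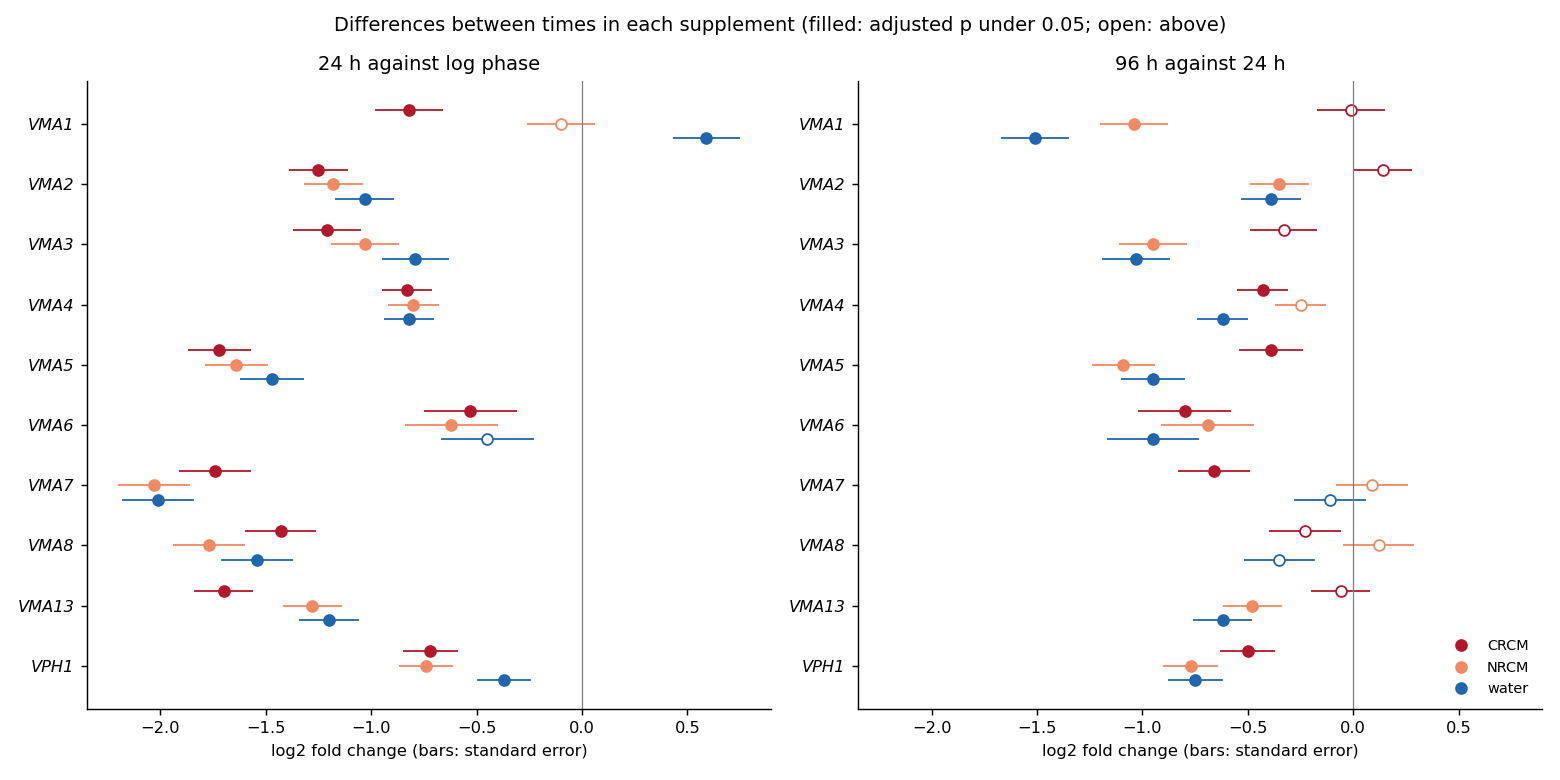
Log2 fold change of each member with its standard error, 24 h against log phase (left) and 96 h against 24 h (right), in CRCM (red), NRCM (orange) and water (blue). Filled points have an adjusted p under 0.05, and on the left all points lie below 0 except VMA1 with water at 0.59.

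At 24 h, VMA1 was the only member that limma called in all 3 comparisons between supplements. With CRCM it was lower than with water in all libraries (-1.46 ± 0.10, adjusted p = 8.67e-06). It was also lower with NRCM than with water (-0.60 ± 0.10, 0.00752), and lower with CRCM than with NRCM (-0.86 ± 0.10, 0.000221). The 3 comparisons share libraries in pairs, and in each the per-library values do not overlap. In CRCM against water the change of VMA1 ranked 225th by size among 6577 genes tested. Left-out libraries moved its log2 fold change between -1.51 and -1.40 in that comparison, and CPM without scaling factors gave -1.04. CRCM 24 h replicate 3, the deepest library, was among those left out. The NRCM against water call was lost when only the 6 libraries compared were fitted (-0.58, adjusted p = 0.0507).

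Few other subunits differed at 24 h. In CRCM against water limma called 0 of 10 members higher and 2 lower, where 27.2% of genes were called higher and 24.2% lower. At an unadjusted p under 0.05 there were 1 higher and 2 lower, and edgeR called 0 and 2 and DESeq2 0 and 3. The libraries did not overlap for 5 members, against 68.6% of all genes. The second call was VPH1, the vacuolar a subunit, with 390, 382 and 376 CPM in CRCM, against 487, 490 and 469 CPM in water (-0.35 ± 0.07, adjusted p = 0.0036), and its groups do not overlap. Its direction depends on the scaling, because without scaling factors the median of all genes moved to 0.42 and VPH1 to 0.07. In NRCM against water VMA1 was the 1 member called (6.93% of genes higher, 6.39% lower), and 3 members did not overlap (31.3% of genes). VPH1 lay between the other groups there, at 429, 417 and 417 CPM (-0.19 ± 0.07, 0.111). The groups of VPH1 thus did not overlap in any pair of supplements, and neither did those of VMA3. DESeq2 called VPH1 in NRCM against water (-0.19, adjusted p = 0.00769) and in CRCM against NRCM (-0.18, 0.0054).

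In CRCM against NRCM, 0 members were called higher and 3 lower (22.3% and 19.8% of genes), and 5 did not overlap (54.4% of genes). Besides VMA1 they were the c subunit VMA3 and the H subunit VMA13. VMA3 had 418, 407 and 391 CPM in CRCM, against 517, 487 and 511 CPM in NRCM (-0.33 ± 0.08, adjusted p = 0.00775). VMA13 had 180, 165 and 170 CPM in CRCM, against 297, 206 and 206 CPM in NRCM (-0.45 ± 0.13, 0.0214). Neither pair of groups overlaps, and NRCM replicate 1 is high for VMA13. Without scaling factors VMA3 turned to 0.02 and VMA13 was at -0.10 (adjusted p = 0.575). In the fit of 27 libraries the VMA3 call was lost (-0.32, 0.126). The VMA13 call was also lost without CRCM 24 h replicate 2 or 3 (0.0734 and 0.0577) and when only the 6 libraries compared were fitted (-0.45, 0.0545). The same replicate of NRCM stood high for VMA2 and VMA8. VMA8 had 116, 65.9 and 69.3 CPM in NRCM, against 118, 96.7 and 122 CPM in water (-0.46 ± 0.19, 0.138), and without NRCM 24 h replicate 1 it was called lower (-0.69, 0.00148). VMA8 was then also called higher in CRCM than in NRCM (0.68, adjusted p = 0.00056), and so was VMA7 (0.38, 0.0356).

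Without that library VPH1 was also called in NRCM against water (-0.18, 0.0468), and VMA7 (0.35, 0.0238) and VMA13 (-0.24, 0.00516) in CRCM against water. VMA7 had 87.4, 80.7 and 75.8 CPM in CRCM, against 69.1, 53 and 72.6 CPM in water, and its groups do not overlap (0.32 ± 0.13, 0.0684). It was called in CRCM against water without water 24 h replicate 3 (0.41, 0.0401), and in CRCM against NRCM without water 24 h replicate 2 (0.30, 0.0365), which enters that fit only through the shared spread. VMA6 was called in CRCM against water without water 24 h replicate 2 (-0.31, 0.031).

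**Figure D3:**
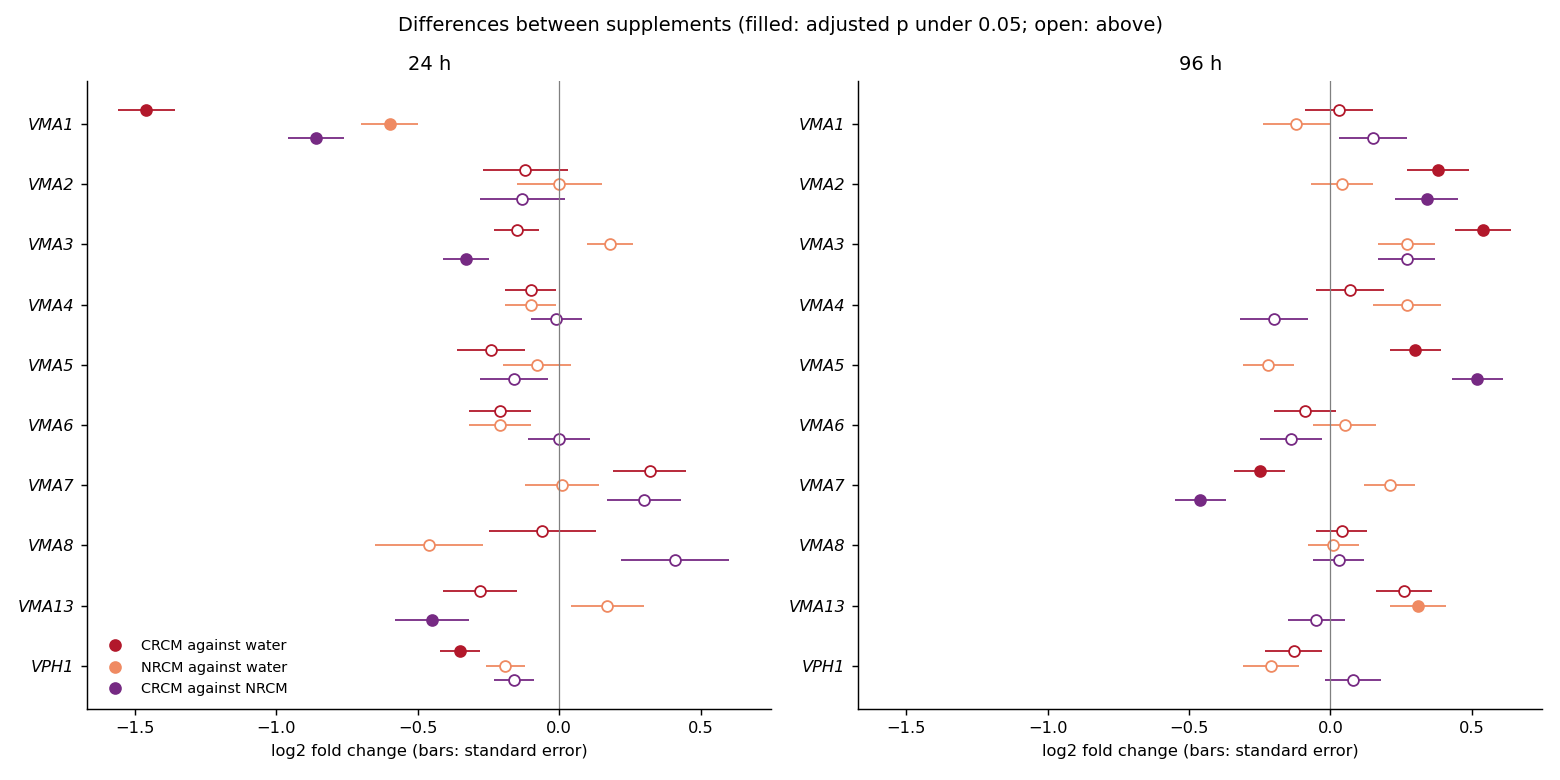
Log2 fold change of each member with its standard error between supplements at 24 h (left) and 96 h (right), for CRCM against water (red), NRCM against water (orange) and CRCM against NRCM (purple), with filled points at an adjusted p under 0.05. At 24 h VMA1 stands apart at -1.46, -0.60 and -0.86, and at 96 h all members lie between -0.46 and 0.54.

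The ratio of VMA1 to VMA2 within a library does not depend on the scaling between libraries. Both products enter V1 in equal numbers, so the ratio was computed from reads per kb of coding sequence. This measure was chosen after the values of VMA1 were seen. At 24 h it was 0.729, 0.782 and 0.743 in CRCM and 0.982, 1.3 and 1.52 in NRCM, against 1.77, 1.72 and 2.24 in water. The groups are fully ordered, with no overlap. The difference of CRCM from water was -1.16, and the exact two-sided permutation test gave p = 0.1, the smallest that 3 against 3 libraries allow. NRCM differed from water by -0.642 (exact p = 0.1) and CRCM from NRCM by -0.516 (exact p = 0.1). In log phase the ratio was 0.558 ± 0.0582 in CRCM, 0.591 ± 0.0553 in NRCM and 0.616 ± 0.0734 in water (SD, n = 3 each), with overlap between the supplements. At 96 h it was 0.679 ± 0.045 in CRCM, 0.774 ± 0.0103 in NRCM and 0.87 ± 0.067 in water, with no overlap between any pair (exact p = 0.1 in each). Without CRCM replicate 3 the CRCM ratios were 0.641 and 0.667, still below all others at that time. VMA1 itself was called in no comparison at 96 h, while VMA2 was called higher with CRCM than with water or NRCM. Over the 3 times and 3 pairs of supplements 9 permutation tests were run on the ratio, with as many on the share given next, so no adjusted p could pass.

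VMA1 reads also made up a different part of the reads of the 10 members. At 24 h the share was 19.1%, 19.2% and 19.3% in CRCM and 26.8%, 27.6% and 30.1% in NRCM, against 35.6%, 35.7% and 38.3% in water. At 96 h it was 22.9% ± 0.566 in CRCM and 22.2% ± 1.44 in NRCM, against 24.8% ± 1.38 in water (SD, n = 3 each). The CRCM and NRCM shares overlapped at 96 h (exact permutation p = 0.6), and each was below water with no overlap (exact permutation p = 0.1).

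**Figure D4:**
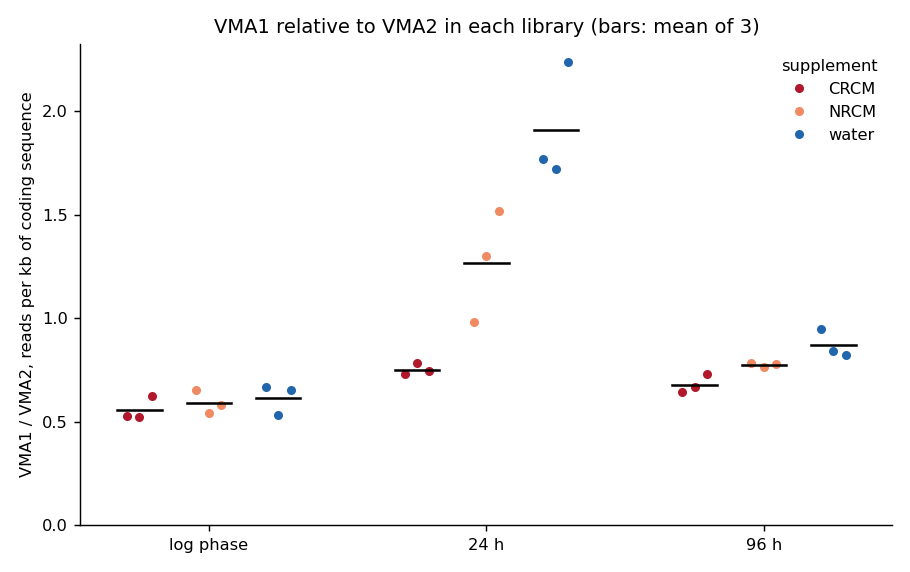
Ratio of VMA1 to VMA2 in reads per kb of coding sequence in each library (linear axis from 0), by time and supplement, with bars at the mean of 3. At 24 h CRCM (red) lies at 0.729 to 0.782, NRCM (orange) at 0.982 to 1.52 and water (blue) at 1.72 to 2.24, and in log phase the supplements overlap.

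At 96 h VMA1 no longer separated CRCM from water. It lay at 539, 518 and 542 CPM in CRCM and 500, 423 and 483 CPM in NRCM, against 576, 443 and 520 CPM in water, and it was called in none of the comparisons (0.03 ± 0.12 in CRCM against water, adjusted p = 0.873). The c subunit VMA3, the B subunit VMA2 and the C subunit VMA5 were higher with CRCM than with water. In that comparison 3 members were called higher and 1 lower, where 19.6% and 21.7% of 6652 genes were called. The per-library values did not overlap for 6 members, against 53.6% of all genes.

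VMA3 had 326, 306 and 338 CPM in CRCM, against 231, 189 and 233 CPM in water (0.54 ± 0.10, adjusted p = 0.00217). VMA2 had 407, 375 and 359 CPM in CRCM, against 294, 254 and 306 CPM in water (0.38 ± 0.11, 0.0175). VMA5 had 104, 111 and 121 CPM in CRCM, against 87.3, 86 and 92.4 CPM in water (0.30 ± 0.09, 0.0175). All 3 CRCM libraries were above all 3 water libraries for each of these genes. The F subunit VMA7 was lower, with 48.7, 53.4 and 51 CPM in CRCM, against 59.8, 59.8 and 58.5 CPM in water (-0.25 ± 0.09, 0.0493).

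Without CRCM 96 h replicate 3, the library with LEU2 and URA3 reads, VMA3 (0.52, 0.00144), VMA2 (0.44, 0.005) and VMA5 (0.26, 0.0194) were still called in CRCM against water. VMA13 was then called too (0.27, 0.0366), so that 4 members were higher, and VMA7 was not (-0.24, 0.0531). The VMA3 call was kept in each fit without 1 library, while others depended on single ones. VMA2 was lost without water 96 h replicate 2 (0.069) or CRCM 96 h replicate 1 (0.0504). VMA5 was lost without water 96 h replicate 1 or 2 (0.0652 and 0.0555) or CRCM 96 h replicate 2 (0.0503), without scaling factors (0.19, 0.12) and in the fit of 27 libraries (0.34, 0.0831), and VMA7 without any 1 of the 9 libraries other than NRCM 96 h replicate 2 (0.0528 to 0.123).

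In CRCM against NRCM at 96 h, 2 members were called higher and 1 lower (17.3% and 19.7% of genes), and 5 did not overlap (48% of genes). VMA5 had 104, 111 and 121 CPM in CRCM, against 76, 71.9 and 79.4 CPM in NRCM (0.52 ± 0.09, adjusted p = 0.00114), with no overlap. VMA2 was at 0.34 ± 0.11 (0.0318) and VMA7 at -0.46 ± 0.09 (0.00319). Without CRCM 96 h replicate 3 they were at 0.48 (0.000631), 0.40 (0.0098) and -0.45 (0.0023), all still called. The VMA2 call was lost without CRCM 96 h replicate 1 or 2 (0.085 and 0.0764) or NRCM 96 h replicate 2 or 3 (0.107 and 0.0692). The VMA7 call was lost in the fit of 27 libraries (-0.42, 0.0678). VMA3 was gained without water 96 h replicate 2 (0.27, 0.0394), without scaling factors (0.26, 0.043) and with DESeq2 size factors (0.29). DESeq2 on reads called it too (0.29, adjusted p = 0.0173).

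In NRCM against water at 96 h, the H subunit VMA13 was the 1 member called higher and none was called lower (12.5% and 12% of genes). At an unadjusted p under 0.05 there were 4 higher and 1 lower, edgeR called 1 and 0, and DESeq2 called 2 and 0. The libraries did not overlap for 6 members, against 53.7% of genes. VMA13 had 162, 179 and 160 CPM in NRCM, against 136, 123 and 146 CPM in water (0.31 ± 0.10, adjusted p = 0.0408), with no overlap. The call was lost without any of the 6 libraries compared (0.0577 to 0.145), without CRCM 96 h replicate 2 (0.0529), without scaling factors (0.21, 0.119) and in the fit of 27 libraries (0.31, 0.123). Without CRCM 96 h replicate 3, which enters this fit only through the shared spread, VMA3 (0.27, 0.0356) and VMA4 (0.27, 0.0299) were called higher too and VMA5 lower (-0.22, 0.0286).

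Between 24 h and 96 h more members fell with NRCM and water than stayed uncalled, and VMA1 was among them. With CRCM 5 of 10 members fell at 96 h relative to 24 h (24.8% of genes called lower), with NRCM 7 (28.2%) and with water 8 (26.5%). limma called none higher in any supplement, and neither did edgeR, DESeq2 or an unadjusted p under 0.05 (0 in each), where limma called 22.4%, 28.8% and 27.1% of genes higher in CRCM, NRCM and water. VMA6, the d subunit, fell in each (-0.80, -0.69 and -0.95 with CRCM, NRCM and water), and so did VPH1 (-0.50, -0.77 and -0.75), with an adjusted p of at most 0.0116. VMA1 fell with water (-1.51 ± 0.16, adjusted p = 2.54e-08) and NRCM (-1.04 ± 0.16, 5.25e-06), and with CRCM it was at -0.01 ± 0.16 (0.975). The VMA1 levels of the 3 supplements thus met at 423 to 576 CPM at 96 h.

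The direction of this step rests on the scaling for some members. Without scaling factors the median of all genes moved to 0.71 with water, 0.51 with NRCM and 0.13 with CRCM. VMA2, VMA4, VMA7 and VMA13 with water and VMA2 and VMA13 with NRCM then changed sign, while VMA1 with water and NRCM, VMA3 and VMA5 stayed negative. Some calls were lost without a change of sign. VMA6 lost it with water (-0.27, adjusted p = 0.284) and NRCM (-0.17, 0.509), and VPH1 with water (-0.07, 0.631) and NRCM (-0.25, 0.0747). VMA5 lost it with water (-0.28, 0.101) and CRCM (-0.26, 0.161), and VMA4 with CRCM (-0.30, 0.0578). The members called were then 0 higher and 3 lower with CRCM, 2 and 3 with NRCM, and 1 and 2 with water. Without CRCM 96 h replicate 3 the 5 members with CRCM (VMA4, VMA5, VMA6, VMA7 and VPH1) were still called. VMA5 with CRCM was lost without CRCM 24 h replicate 1 (0.147) or CRCM 96 h replicate 1 or 2 (0.104 and 0.0682). VMA2 with NRCM was lost without NRCM 24 h replicate 1 (-0.16, 0.30) or NRCM 96 h replicate 2 or 3 (0.133 and 0.0613). VMA2 with water was lost without water 24 h replicate 1 or 2 (0.0937 and 0.0667) or water 96 h replicate 2 (0.115), and VMA13 with NRCM without NRCM 24 h replicate 1 (-0.31, 0.0505). Without that library VMA8 was called higher with NRCM (0.38, 0.0322) and lower with water (-0.35, 0.0273). VMA8 with water was also gained without water 24 h replicate 2 (-0.46, 0.0474), VMA4 with NRCM without NRCM 96 h replicate 2 (-0.32, 0.0498), and VMA3 with CRCM without NRCM log phase replicate 1 or 3 (-0.33 in both, 0.0385 and 0.0358).

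Whether the difference between supplements itself changed with time was tested as an interaction. In CRCM against water, 24 h minus log phase, 1 member was called, VMA1 at -1.41 ± 0.22 (adjusted p = 5.57e-05), where 12.8% of genes were called higher and 12.5% lower. In CRCM against water, 96 h minus 24 h, 5 members were called higher and none lower (15.5% and 14.4% of genes). VMA1 had the largest value, 1.51 ± 0.22 (2.12e-05), followed by VMA3 at 0.71 ± 0.22 (0.0194). Without CRCM 96 h replicate 3 these 2 (1.49 and 0.68) were the members called, and without scaling factors 1 was called higher and 1 lower. In NRCM against water, 96 h minus 24 h, limma called 0 members (1.02% of genes higher, 0.36% lower), with 2 at an unadjusted p under 0.05 and 0 by edgeR and DESeq2. The VMA1 value there was 0.47 ± 0.22 (0.303). In CRCM against NRCM, 96 h minus 24 h, 3 members were called higher and 1 lower (14.7% and 13.5% of genes), with VMA1 at 1.03 ± 0.22 (0.00139).

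Across the 9 group means, 9 of the members followed each other closely and VMA1 did not. The Pearson r of log2(CPM + 1) between members had a median of 0.941 over 45 pairs, and the median r of VMA1 with the others was 0.651. These points share libraries and the same scaling, and 3 of the groups are log phase, which sets most of the spread. The genes outside the lists whose profile was most like the mean of the 10 members were SCW10 (r = 0.996), ADO1 (0.995), PSD1 (0.995), ODC2 (0.995) and ASN2 (0.994), of 6039 genes ranked over 9 group means. SCW10 encodes a cell wall protein, ADO1 adenosine kinase, PSD1 the mitochondrial phosphatidylserine decarboxylase, ODC2 a mitochondrial carrier of 2-oxodicarboxylates and ASN2 an asparagine synthetase. VMA1 itself ranked 1903rd with r = 0.69. The other 9 members, which are themselves part of the mean, ranked from 6th (VMA5, r = 0.994) to 350th (VMA6, r = 0.945). Genes outside the lists thus followed the mean profile as closely.

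Of the 6 other subunit genes, 4 fell between log phase and 24 h with CRCM, 4 with NRCM and 3 with water, where 36.5%, 39.5% and 39.2% of all genes were called lower. VMA10, the G subunit of the peripheral stalks, fell in each (-1.09, -1.69 and -1.19 with CRCM, NRCM and water), and so did VMA9, the small e subunit (-1.28, -1.26 and -1.12). The Golgi and endosome isoform of the a subunit, STV1, was at 0.00, -0.04 and -0.01, and VMA11, the c′ proteolipid, was at 0.01, -0.02 and 0.29, none of them called. The differences of STV1 from VPH1 and of VMA11 from VMA3 were not tested. How the counting treated reads shared by related genes such as VMA3 and VMA11 was not given in the sources used here. At 96 h VMA9 (0.62, adjusted p = 0.012), VMA10 (0.42, 0.02) and VMA11 (0.71, 0.0063) exceeded their water levels with CRCM, and all 3 were still called without CRCM 96 h replicate 3 (0.41, 0.31 and 0.49). VMA9 was lost without water 96 h replicate 2 (0.0573) and VMA10 without water 96 h replicate 1 (0.0832).

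Of the 9 assembly and regulation genes, 4, 5 and 5 fell between log phase and 24 h and 2, 3 and 3 rose with CRCM, NRCM and water. These counts are near the shares of all genes, 36.5% to 39.5% lower and 37.1% to 39.7% higher. The endoplasmic reticulum assembly factors VMA12 (named VPH2 in RefSeq), VMA21, VMA22 and PKR1 fell in each supplement. PKR1 had the largest fall, with 20.4, 15.3 and 17.5 CPM at 24 h with CRCM, against 88.2, 87.5 and 61.4 CPM in log phase (-2.08, adjusted p = 7.5e-13). RAV1, the large RAVE subunit, rose by 0.52, 0.83 and 0.60, and OXR1, whose product promotes the release of V1, rose by 1.72, 1.70 and 1.98 with CRCM, NRCM and water. OXR1 had 132, 131 and 127 CPM at 24 h with CRCM, against 41.3, 39.2 and 35.6 CPM in log phase. With water it had 154, 134 and 190 CPM at 24 h, against 33.9, 59.5 and 29.8 CPM in log phase. Other genes of this list did not all go with these. Against the mean profile of the 10 members, SKP1 had r = 0.415 and RTC5 0.637, while RAV2 had -0.612, RAV1 -0.943 and OXR1 -0.693.

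Of the 17 listed vacuolar transporters, which use the proton gradient, 13 rose and 2 fell at 24 h relative to log phase with CRCM, 13 and 2 with NRCM, and 12 and 1 with water, with medians of 1.04, 1.12 and 1.35. Over all genes 39.7%, 38.8% and 37.1% were called higher and 36.5%, 39.5% and 39.2% lower. At 96 h relative to 24 h the list went the other way, with 2 called higher and 14 lower with CRCM, 1 and 16 with NRCM, and 1 and 15 with water (medians -0.71, -0.91 and -0.81), where 24.8%, 28.2% and 26.5% of genes were called lower. RTC2, a basic amino acid exporter of the vacuole, averaged 139 ± 4.98 CPM at 24 h with CRCM, against 7.57 ± 0.901 CPM in log phase (SD, n = 3 each). AVT3, a neutral amino acid exporter, rose by 3.25, 3.33 and 3.20 with CRCM, NRCM and water. At 24 h RTC2 (-0.74, adjusted p = 0.00048) and VBA1 (-0.71, 0.00013), a basic amino acid importer, were lower with CRCM than with water. In that comparison 2 of the 17 were called higher and 7 lower (27.2% and 24.2% of genes). At 96 h 7 were called higher and 2 lower (19.6% and 21.7% of genes), or 8 and 2 without CRCM 96 h replicate 3.

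**Figure D5:**
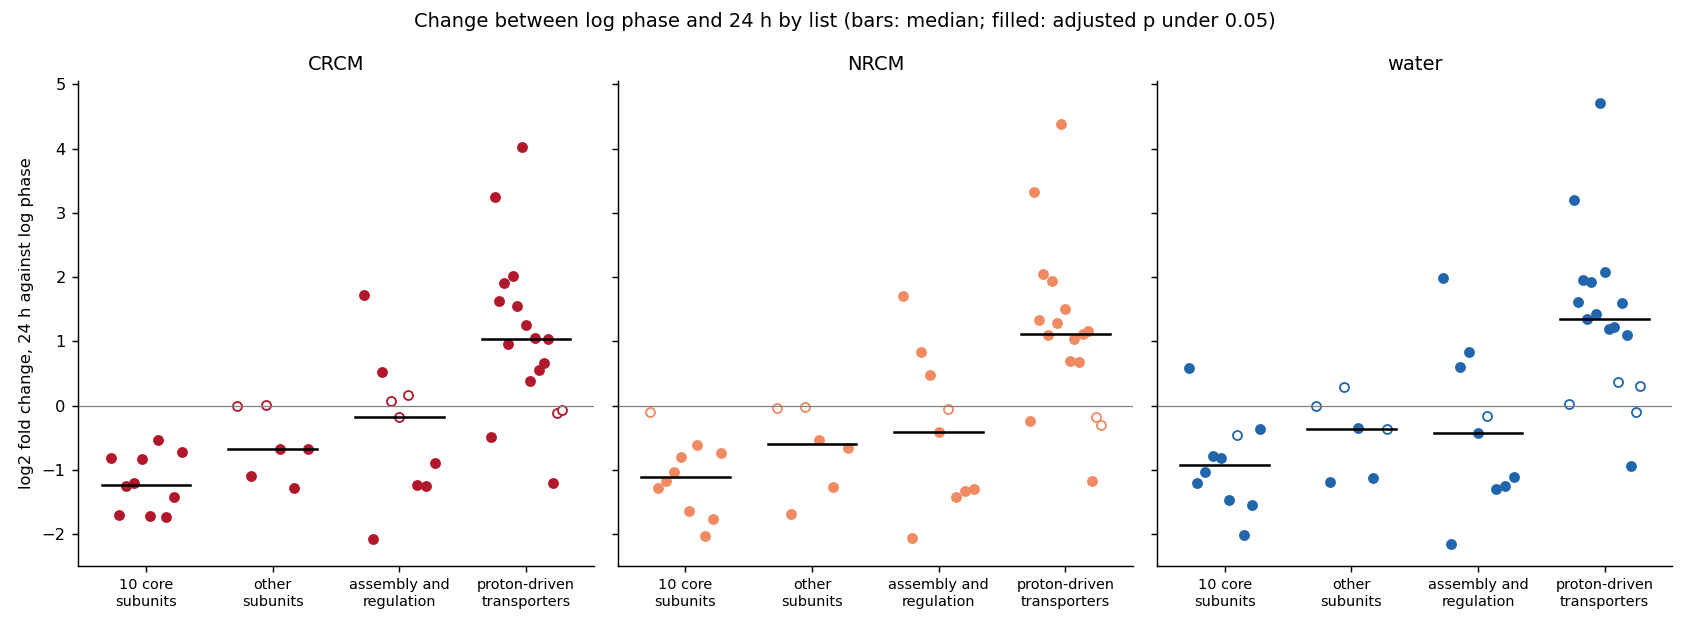
Log2 fold change at 24 h against log phase of each gene in 4 lists, in CRCM, NRCM and water, with bars at the list median and filled points at an adjusted p under 0.05. The 10 core subunits have medians of -1.23, -1.11 and -0.92 and the 17 transporters 1.04, 1.12 and 1.35.

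The plasma membrane proton ATPases share much of their sequence, so the split of reads between them is uncertain. The main pump PMA1 fell at 24 h relative to log phase (-1.18, -1.29 and -0.83 with CRCM, NRCM and water). The minor pump PMA2 had 41.6, 45.5 and 46.3 CPM at 24 h with CRCM, against 231, 230 and 173 CPM with water (-2.23, adjusted p = 0.0078). At 96 h it had 253, 125 and 74.2 CPM with CRCM, against 45.9, 49.2 and 43.2 CPM with water (1.48, adjusted p = 0.0062), and without CRCM 96 h replicate 3 it was still called higher. The groups of PMA2 do not overlap at either time. PMA1 was called lower in the same comparison, with 252, 677 and 1140 CPM in CRCM, against 1420, 1160 and 1340 CPM in water (-1.20, adjusted p = 0.0345). It was still called without CRCM 96 h replicate 3 or, at -0.61, without CRCM 96 h replicate 1, and lost without any of the 3 water libraries, CRCM 96 h replicate 2 or NRCM 96 h replicate 1 or 2. edgeR and DESeq2 did not call it.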

How the data were processed

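RNA was sequenced from 27 BY4741 cultures (9 groups, 3 biological replicates each). Reads were poly(A) selected and, per the submitters' processing notes and the study's methods, aligned with Bowtie2 to sacCer3. The notes also name bedtools, edgeR and DESeq2. Versions, the step that assigned reads to genes and its use of strand are not given in the sources used here. The deposited values are a signal, the share of each library's reads for each of 6692 genes, although the table is titled as raw counts. Every value that could be tested was a whole multiple of 1 read, within 0.1 read, in all 27 libraries (38.8% of values were testable, and 100% of those came out whole). Library totals recovered this way were 7396427 to 114316139 reads.

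Shares were turned into CPM, scaled with TMM factors (edgeR 4.0.16) and tested as log2(CPM + 1) with limma 3.58.1 in R 4.3.3, with trend and two-sided tests. Genes needed at least 1 CPM in at least 3 libraries. Supplements were compared within the 9 libraries of a time, and times and interactions in all 27. Benjamini-Hochberg adjustment ran over all genes tested, with a threshold of 0.05. A fold change of CPM + 1 understates the change of low genes. The code was tested on simulated data. Alternatives were other scaling, filters and pseudocounts, edgeR and DESeq2 1.42.0 on the recovered reads, a replicate block, other sets of libraries, and each library left out. Leaving out the log-phase libraries numbered 3 together was chosen after seeing the data.

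Replicate numbers were checked for pairing. Same-numbered libraries deviated together, with every r over 0.1, only for CRCM and NRCM in log phase (0.481 to 0.751) and at 24 h (0.227 to 0.34). The labels do not state a pairing. Libraries with different numbers reached r = 0.616 in log phase and 0.357 at 24 h. The ranges thus overlap at both times, and the numbers do not clearly set pairs apart. For CRCM against NRCM, fits with the replicate block gave the same member counts, 0 higher and 0 lower in log phase and 0 higher and 3 lower at 24 h.

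The 10 members and the other lists (6 other subunits, 9 assembly and regulation genes, 17 transporters, 2 plasma membrane pumps) were chosen with earlier results of these data known. All 10 members were named, with any gene of the first 2 other lists, up to 3 genes of each of the last 2 lists by their smallest adjusted p in CRCM against water at 24 h or 96 h, and the 5 genes with the most similar profile and at least 10 CPM. Of the 6692 IDs, 6008 matched a RefSeq locus tag, as did 44 of 44 listed genes. Sequences are from RefSeq (R64).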

Additional observations from a re-analysis of the deposited data

Results flagged for a closer look

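These members are listed because the difference between supplements itself differed between times, by limma's interaction test with adjustment over all genes (n = 3 libraries in each group). VMA1 in CRCM against water was -1.41 for 24 h minus log phase (adjusted p = 5.57e-05) and 1.51 for 96 h minus 24 h (2.12e-05). In CRCM against water, 96 h minus 24 h, VMA2 was at 0.53 (0.0492), VMA3 at 0.71 (0.0194), VMA5 at 0.56 (0.0466) and VMA13 at 0.56 (0.0337). In CRCM against NRCM, 96 h minus 24 h, VMA1 was at 1.03 (0.00139), VMA3 at 0.63 (0.0386), VMA5 at 0.70 (0.0151) and VMA7 at -0.75 (0.0257). The 3 VMA1 values, and VMA5 in CRCM against NRCM, were past the threshold in all 27 fits with 1 library left out. In CRCM against water, 96 h minus 24 h, VMA2 and VMA5 lost the call in 17 of these fits each (adjusted p up to 0.127 and 0.111) and VMA13 in 8 (up to 0.0878), and VMA3 lost it without water 96 h replicate 2 (0.61, 0.0612). In CRCM against NRCM, VMA3 lost it without CRCM 96 h replicate 3 (0.60, 0.0648) and in 10 other fits, each without a CRCM or NRCM library of 24 h or 96 h (up to 0.0717), and VMA7 in 3, without CRCM 24 h replicate 1, NRCM 24 h replicate 3 or NRCM 96 h replicate 2 (up to 0.0645). VMA13 in CRCM against water, 24 h minus log phase (-0.50, 0.064), was gained in 3, without water log phase replicate 3, NRCM log phase replicate 3 or NRCM 24 h replicate 1. Without CRCM 96 h replicate 3, the library with LEU2 and URA3 reads, VMA1 (1.49) and VMA3 (0.68) were the 2 members called in CRCM against water, 96 h minus 24 h. The comparisons share the CRCM libraries.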

How the results depend on the processing

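No member was called in log phase under any setting. For settings other than leaving out 1 library, this section lists counts that moved to or from 0 or by a large factor. Smaller moves are left out, except those with DESeq2 on reads. Without scaling factors the members called were 3 higher and 1 lower in CRCM against water at 24 h, 4 and 1 in CRCM against NRCM at 24 h, 0 and 2 in NRCM against water at 96 h, 3 lower (CRCM), 2 higher and 3 lower (NRCM) and 1 higher and 2 lower (water) in 96 h against 24 h, 3 higher in CRCM against water for 24 h minus log phase and 1 higher and 1 lower for 96 h minus 24 h, and 1 and 3 in CRCM against NRCM for 96 h minus 24 h. That setting moved the median of all genes by up to 0.71 (water, 96 h against 24 h). It also moved the share of higher genes among those called to 85.2%, against 52.9%, in CRCM against water at 24 h. It turned VMA3 to 0.27, VMA4 to 0.31, VPH1 to 0.07, VOA1 to 0.10 and RAV2 to 0.01 in CRCM against water at 24 h, and VMA3 to 0.02, VMA4 to 0.35, VMA6 to 0.35 and VBA1 to 0.01 in CRCM against NRCM at 24 h. In 96 h against 24 h it turned VMA2 to 0.17, VMA13 to 0.04, STV1 to 0.04 and VBA1 to 0.00 with NRCM, and VMA2 to 0.29, VMA4 to 0.06, VMA7 to 0.56, VMA13 to 0.06, RAV2 to 0.26 and SKP1 to 0.12 with water. VMA4 turned to 0.49 for 24 h minus log phase, and VMA2 to -0.02 and RAV2 to -0.13 for 96 h minus 24 h, in CRCM against water. Signs were compared only where a gene was called under either setting.

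Fitting only the 6 libraries compared gave 1 higher and 4 lower in CRCM against water and 0 lower in NRCM against water at 24 h, and 0 lower in CRCM against water and 3 higher and 1 lower in NRCM against water at 96 h. DESeq2 on reads gave 1 higher and 2 lower in NRCM against water at 24 h. At 96 h it gave 0 lower in CRCM against water and 2 higher in NRCM against water. The interactions gave 2 lower for 24 h minus log phase, and 5 higher in CRCM against NRCM for 96 h minus 24 h. Smaller moves with DESeq2 were 3 lower in CRCM against water and 4 lower in CRCM against NRCM at 24 h. At 96 h they were 4 higher in CRCM against water and 3 higher in CRCM against NRCM. For 96 h against 24 h they were 8 lower with NRCM and 9 lower with water. DESeq2 size factors gave 0 lower in CRCM against water at 96 h and 2 lower for 24 h minus log phase. The fit of 27 libraries gave 0 lower in CRCM against water, 0 higher in NRCM against water and 0 lower in CRCM against NRCM at 96 h. edgeR gave 3 higher in CRCM against water for 96 h minus 24 h, and leaving out the log-phase libraries numbered 3 gave 2 lower for 24 h minus log phase. The causes were not tested. With the replicate block, 0 were lower in CRCM against water and 0 higher in NRCM against water at 96 h, where the libraries share only a number.

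With 1 library left out, members higher and lower numbered 0 to 1 and 2 to 3 (CRCM against water), 0 and 1 to 3 (NRCM against water) and 0 to 2 and 2 to 3 (CRCM against NRCM) at 24 h, and 1 to 4 and 0 to 1, 0 to 3 and 0 to 1, and 1 to 3 and 1 in the same order at 96 h. For 24 h against log phase 9 to 10 (CRCM), 8 to 9 (NRCM) and 7 to 9 (water) were lower and 1 (water) higher. For 96 h against 24 h 4 to 6, 5 to 7 and 7 to 9 were lower and 0 to 1 (NRCM) higher. The interactions gave 1 to 2 lower (24 h minus log phase), and for 96 h minus 24 h 1 to 5 higher (CRCM against water), 0 to 1 higher (NRCM against water), and 2 to 3 higher and 0 to 2 lower (CRCM against NRCM).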
